A study of Mus musculus with 7 samples.

Results

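The retinoic acid pathway is represented here by 10 genes out of the 27179 in the deposited count table: 2 genes for enzymes that make retinoic acid (Aldh1a2 and Aldh1a3), 6 for its nuclear receptors (Rara, Rarb, Rarg, Rxra, Rxrb and Rxrg) and 2 for enzymes that break it down (Cyp26a1 and Cyp26b1). They were chosen by name, through the mouse symbol that belongs to each Entrez gene identifier, and all 10 were found. Of these, 8 had enough reads for the gene-level test, while Rxrb and Cyp26a1 had too few.

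The reads come from chromatin immunoprecipitation and sequencing (ChIP-seq) with an anti-V5 antibody on pharyngeal arches 1 and 2 of mouse embryos (strain C57BL/6, stage E10.5). This is the tissue from which the jaws and middle ear form. The V5 group had 3 ChIP libraries from embryos in which both copies of Kat6a, the gene for the histone acetyltransferase MOZ, were tagged at the C-terminus with Flag-V5-BIO; mice of this genotype are viable and fertile. The WT group had 3 ChIP libraries from untagged wild-type arches, which have no V5 epitope and so measure what the antibody brings down without its target. A single input library held chromatin of tagged arches that was not immunoprecipitated, and a wild-type input was not analysed here. No label says how many embryos went into a library or whether replicates were separate dissections, so p-values measure only how these libraries vary, and that variation may be technical. Reads over a gene come from DNA that every cell carries, so marker genes cannot check the tissue label in these data.

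Retinoic acid is a diffusible signal made from vitamin A. Retinaldehyde dehydrogenases carry out the last step of its synthesis, and CYP26 enzymes oxidise it, so that sources and sinks set its level in each part of the embryo. Inside the nucleus it binds a retinoic acid receptor (RAR), which sits on DNA as a heterodimer with a retinoid X receptor (RXR), typically at a direct repeat of a 6-base core. The pair recruits corepressors without ligand and histone acetyltransferases with it. In the pharyngeal region the signal patterns the more posterior arches and pouches, and both an excess and a lack of it disturb craniofacial development.

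The counts cover gene bodies, and the deposited length of a gene shows where its counted stretch begins. For Aldh1a2, Aldh1a3, Rxrb, Rxrg and Cyp26b1 the deposited length equals the whole RefSeq span of the gene (assembly GRCm38.p6, the same as mm10). For Rara, Rxra and Cyp26a1 it equals the distance from a RefSeq start site to the far end of the gene, to the base. Rarb was deposited with 144372 bp although its RefSeq span is 651493 bp (chromosome 14, 16430839 to 17082331), and the start site of its listed promoter lies 144638 bp from the far end, so the counts appear to stop near that promoter and to leave out the part of the gene beyond it. Rarg was deposited with 22544 bp of a span of 22585 bp. The first 50 bases after the most upstream listed start site are thus within the counted stretch of most members. The bases before that site are outside, apart from part of them in Cyp26b1, whose listed start site lies 22397 bp from the far end. Bases before start sites further downstream are partly or wholly inside. Reads at a start site are diluted by the rest of the gene.

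RefSeq promoter windows of 300 bases, from 250 before a start site to 50 after it, were available for 9 of the 10 members, 16 windows in all. They are shown for the genes that frame the results: Rarb and Cyp26a1, textbook targets of retinoic acid that are part of its own feedback, and Rxra and Rarg, the members with enough reads for the test whose V5 values all lay above the WT values. Rxra and Rarg have 2 windows each, of which the more upstream is shown. The windows are given 5′ to 3′ on the strand of the gene in GRCm38.p6, and capitals mark core sequences of receptor sites on either strand: the consensus AGGTCA, its relative AGTTCA, the variant GGGTCA with a different opening base, and the combined variant GGTTCA.
Rarb (chr14:16575427-16575726, minus strand): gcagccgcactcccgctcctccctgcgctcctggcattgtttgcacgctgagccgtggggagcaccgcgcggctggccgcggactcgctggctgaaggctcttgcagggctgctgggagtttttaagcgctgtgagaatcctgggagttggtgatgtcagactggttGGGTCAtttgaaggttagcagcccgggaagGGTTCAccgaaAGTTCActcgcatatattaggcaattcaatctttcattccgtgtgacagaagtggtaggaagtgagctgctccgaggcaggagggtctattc
Cyp26a1 (chr19:37697558-37697857, plus strand): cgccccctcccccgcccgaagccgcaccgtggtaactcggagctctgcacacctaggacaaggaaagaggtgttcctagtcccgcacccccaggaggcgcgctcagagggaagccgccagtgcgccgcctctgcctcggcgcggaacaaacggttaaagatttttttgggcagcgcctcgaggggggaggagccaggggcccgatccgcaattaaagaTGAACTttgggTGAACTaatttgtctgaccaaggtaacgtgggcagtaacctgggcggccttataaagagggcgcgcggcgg
Rxra (chr2:27676951-27677250, plus strand): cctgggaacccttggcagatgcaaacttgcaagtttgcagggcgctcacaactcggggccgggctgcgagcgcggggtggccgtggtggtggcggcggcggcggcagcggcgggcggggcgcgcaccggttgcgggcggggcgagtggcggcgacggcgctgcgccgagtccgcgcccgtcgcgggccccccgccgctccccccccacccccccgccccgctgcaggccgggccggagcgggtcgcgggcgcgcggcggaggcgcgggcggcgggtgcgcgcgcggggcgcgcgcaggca
Rarg (chr15:102257473-102257772, minus strand): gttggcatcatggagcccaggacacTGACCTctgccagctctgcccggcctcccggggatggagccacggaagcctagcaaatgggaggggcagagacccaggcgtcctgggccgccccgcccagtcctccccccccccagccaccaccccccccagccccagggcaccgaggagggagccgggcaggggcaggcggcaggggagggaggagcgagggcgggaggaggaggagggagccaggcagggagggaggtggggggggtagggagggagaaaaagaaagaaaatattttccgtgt

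The Rarb window holds 3 core sequences, and 2 of them form a direct repeat with 5 bases between them (DR5), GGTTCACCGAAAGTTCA, with 36 bases between it and the start site. Cyp26a1 holds a DR5 on the other strand, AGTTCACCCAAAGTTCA, with 15 bases between it and the start site. A DR5 of these letters is rare, being present in 32 of 32851 promoter windows (0.0974%), whereas a single core sequence is common (43.7% of windows). No other member window has a direct repeat of these letters with a spacing of 0 to 5 bases. The Rxra window shown has 0 core sequences and the Rarg window shown 1, whereas the downstream window has 3 in Rxra and 0 in Rarg. The Rxra window shown is rich in G and C, at 83.0% with 55 CpG dinucleotides, while its downstream window has 54.3% and 1. The downstream window of Rxrb, at 82.0% with 47, and the single window of Aldh1a2, at 78.0% with 50, are also above the medians of 52.7% and 7 over all windows. Being above the median in G and C is common here. Among the member windows only the downstream window of Rarg, at 51.7%, is below it. These matches describe the letters only.

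The ChIP libraries held 806648 to 3286602 reads over genes and the input 3488745, so that a gene with 0 reads could still have had up to 0.913 to 3.72 CPM (reads per 1e6 reads of the library) in a ChIP library, from counting error alone. The members together had 430, 478 and 1447 reads in V5 replicates 1 to 3, 538, 517 and 962 in WT replicates 1 to 3, and 1340 in the input. WT replicate 2 stands apart in the sex chromosomes, with 2.77% of its reads on X (3.94% to 4.51% in the other libraries). Kat6a, the tagged gene, had a log2 fold change of 0.29 (SE 0.28) between V5 and WT, with 73, 207 and 313 reads against 133, 155 and 218. Over all 14575 genes tested, edgeR's quasi-likelihood test called 0% at an adjusted p of 0.05, 4.19% had an unadjusted p under 0.05, and DESeq2 called 0 genes as well.

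In the comparison of V5 with WT, which asks where tagged MOZ brought down more chromatin than the antibody alone, 3 receptor genes had every V5 library above every WT library: Rarg, Rxra and Rxrb. The synthesis and degradation enzymes showed no such separation, and no member had every V5 library below every WT library. Neither Rarg nor Rxra passed over all genes, and Rxrb had too few reads for that test. Among the 8 members with enough reads, 2 were wholly above, where 4.83% of all genes tested were, and 0 were wholly below (5.27% of all genes tested). With 8 genes this is a small count. The median log2 fold change of these 8 was 0.19, beside 0.03 over all genes tested, with 6 positive and 2 negative.

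**Figure D1:**
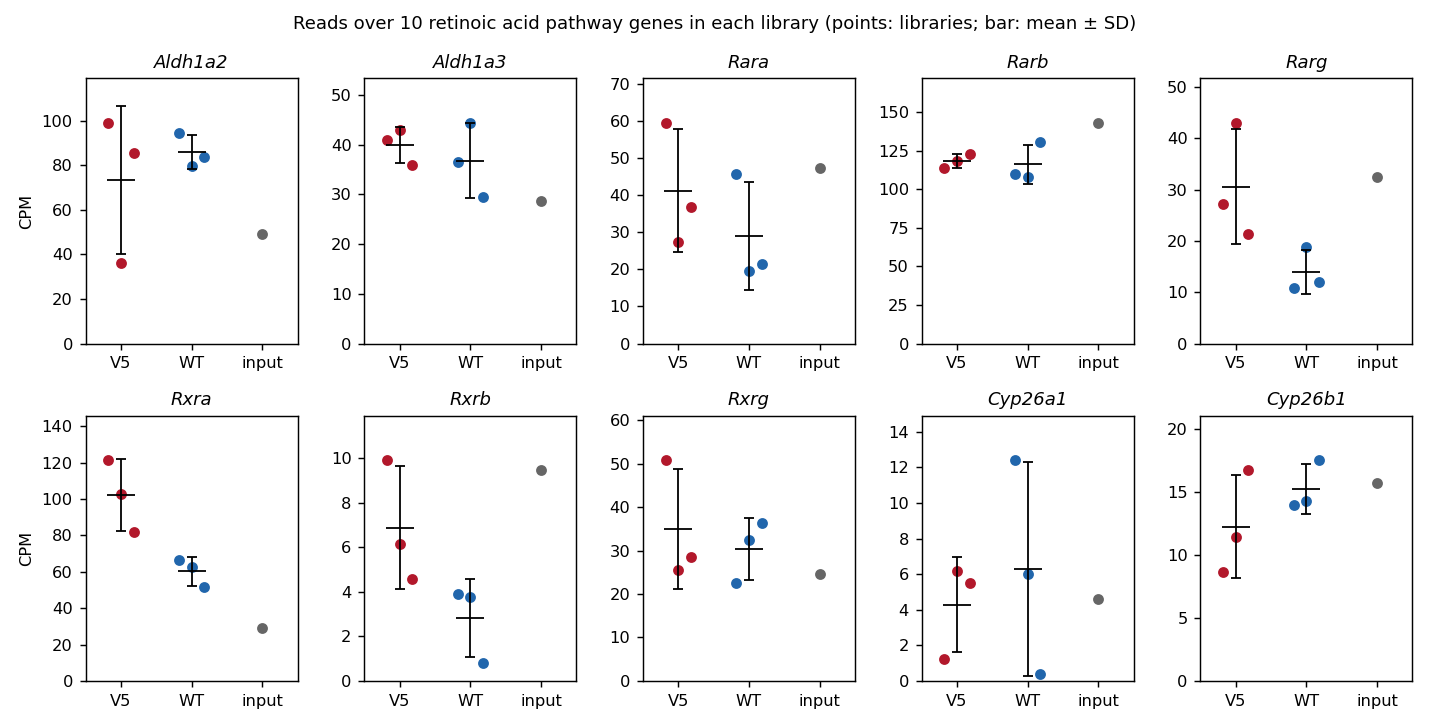
Reads over each of the 10 genes in CPM (vertical axis, linear, from 0) in the V5, WT and input libraries; points are libraries and the black bars show mean ± SD of 3 libraries. V5 points lie wholly above WT points in Rarg, Rxra and Rxrb, and the input lies below every ChIP library in Rxra but above every WT library in Rarg and Rxrb.

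Rxra encodes RXR alpha, the RXR that most RAR functions in the embryo rely on (chromosome 2, 27676445 to 27763319). It had 98, 117 and 270 reads in V5 replicates 1 to 3, which is 121, 103 and 82.2 CPM. WT replicates 1 to 3 had 86, 83 and 129 reads, or 66.7, 62.5 and 51.5 CPM. The lowest V5 library was thus above the highest WT library, and the input, at 101 reads or 29.0 CPM (95% Poisson interval 23.6 to 35.2, counting error only), was below all 6 ChIP libraries. The means were 102 ± 19.7 CPM in V5 and 60.3 ± 7.86 in WT (SD, n = 3). In edgeR this was 0.80 on the log2 scale (SE 0.30), with an unadjusted p of 0.0132 and an adjusted p of 0.978. Of all genes tested, 8.97% had a log2 fold change at least as large. It stayed between 0.60 and 0.96 when each ChIP library was left out in turn, and the adjusted p ranged from 0.450 to 1.00 over all alternatives. Within each group the CPM of Rxra was highest in the library with the fewest reads and lowest in the one with the most, and the part of depth in the difference was not tested.

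Rarg, for RAR gamma, a receptor of skeletal and craniofacial precursors (chromosome 15, 102234938 to 102257522), had 22, 49 and 70 reads in V5, or 27.3, 43.0 and 21.3 CPM. The WT libraries had 14, 25 and 30 reads, or 10.9, 18.8 and 12.0 CPM. V5 replicate 3 was close to WT replicate 2, and V5 replicate 2 was above all others. The means of 30.5 ± 11.2 and 13.9 ± 4.32 CPM (SD, n = 3) gave a log2 fold change of 1.16 (SE 0.56, edgeR unadjusted p = 0.0498, adjusted p = 0.978), which 3.40% of all genes tested reached or exceeded. The input, at 113 reads or 32.4 CPM (95% Poisson interval 26.7 to 38.9), was above every WT library and above V5 replicates 1 and 3. Unlike in Rxra, the V5 libraries were thus around the input level and the WT libraries under it. Without V5 replicate 2 the log2 fold change was 0.84, and without WT replicate 2 it was 1.42.

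Rxrb, for RXR beta, lies in a gene-dense part of chromosome 17 (34031812 to 34038403) and is short, at 6592 bp. It had 8, 7 and 15 reads in V5 and 5, 5 and 2 in WT, or 9.92, 6.15 and 4.56 against 3.88, 3.77 and 0.799 CPM. All V5 libraries were above all WT libraries, by a narrow margin between V5 replicate 3 and WT replicate 1. V5 had 2.44 times the mean CPM of WT (exact permutation test, two-sided, p = 0.1, the smallest that 3 against 3 libraries allow). DESeq2, run without the count filter, gave an unadjusted p of 0.216. The input had 33 reads, or 9.46 CPM (95% Poisson interval 6.51 to 13.3), above every WT library and above V5 replicates 2 and 3, as in Rarg. Counts this low leave the size of the difference loosely set: without WT replicate 3 the ratio was 0.85 on the log2 scale, and without WT replicate 1 it was 1.59.

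The other receptor genes overlapped between the groups. Rara, for the broadly expressed RAR alpha (chromosome 11, 98927800 to 98974942), had 48, 31 and 121 reads in V5 and 59, 26 and 54 in WT, or 59.5, 27.2 and 36.8 against 45.8, 19.6 and 21.6 CPM. WT replicate 1 lay above V5 replicates 2 and 3, and the edgeR log2 fold change of 0.55 (SE 0.48, adjusted p = 0.978) became 0.15 on leaving out V5 replicate 1 and 1.02 on leaving out WT replicate 1. Rara overlaps 2 other annotated genes, one of them a small nuclear RNA gene, and reads in the shared stretches may have been left uncounted.

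Rarb, for RAR beta, whose promoter carries the DR5 shown above, was the steadiest member. It had 92, 135 and 405 reads in V5 and 142, 143 and 327 in WT, or 114, 119 and 123 against 110, 108 and 131 CPM. The groups interleaved, and edgeR gave a log2 fold change of 0.06 (SE 0.24, adjusted p = 0.996). The input, at 500 reads or 143 CPM, was above all 6 ChIP libraries. Rarb overlaps 4 other annotated genes over its RefSeq span, and reads in any shared stretches may likewise have been left uncounted. Rxrg, for RXR gamma, the RXR of muscle and some neurons (chromosome 1, 167598362 to 167639623), had 41, 29 and 94 reads against 29, 43 and 91. Only V5 replicate 1, at 50.8 CPM, stood above the WT range of 22.5 to 36.3 CPM, and edgeR gave 0.22 on the log2 scale (SE 0.47, adjusted p = 0.992).

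**Figure D2:**
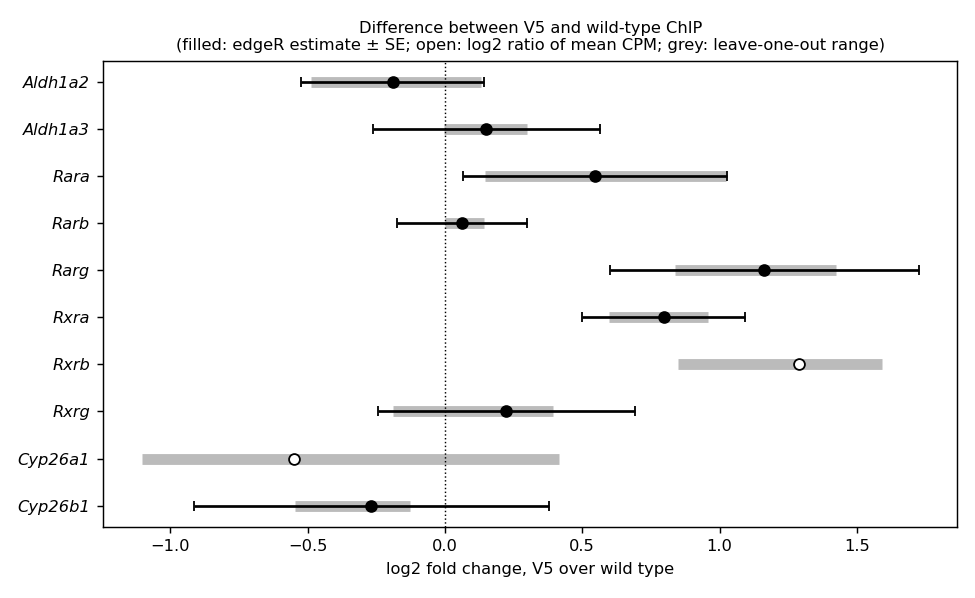
Log2 fold change of V5 over WT (horizontal axis) for the 10 genes; filled points are edgeR estimates with their SE, open points are log2 ratios of mean CPM for the 2 genes with too few reads, and grey bars span the values with each ChIP library left out in turn. The grey bars of Rara, Rarg, Rxra and Rxrb lie wholly above 0 and that of Cyp26b1 wholly below, while those of the other 5 genes reach or cross 0.

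The synthesis enzymes had similar read levels in both groups. Aldh1a2, the main retinoic acid source of the embryonic trunk (chromosome 9, 71215789 to 71296243), had 80, 41 and 281 reads in V5 and 122, 106 and 210 in WT, or 99.2, 36.0 and 85.5 against 94.7, 79.9 and 83.8 CPM. V5 replicate 2 lay far below all other ChIP libraries, and the remaining 5 were close together. By edgeR V5 over WT was -0.19 on the log2 scale (SE 0.33, adjusted p = 0.989), and 0.13 without V5 replicate 2. Aldh1a3, which makes retinoic acid in the eye and nasal region (chromosome 7, 66390892 to 66427477), had 33, 49 and 118 reads against 47, 59 and 74. Its CPM spanned 35.9 to 43.0 in V5 and 29.5 to 44.4 in WT, so that the V5 range lay inside the WT range (log2 fold change 0.15, SE 0.41, edgeR adjusted p = 0.992).

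Both degradation enzymes had lower V5 means within overlapping ranges. Cyp26b1, which clears retinoic acid in limb, hindbrain and craniofacial tissue (chromosome 6, 84571414 to 84593908), had 7, 13 and 55 reads in V5 and 18, 19 and 44 in WT, or 8.68, 11.4 and 16.7 against 14.0, 14.3 and 17.6 CPM. V5 replicates 1 and 2 were below every WT library and V5 replicate 3 was among them (log2 fold change -0.27, SE 0.65, edgeR adjusted p = 0.992). Cyp26a1, the retinoic acid induced enzyme whose promoter carries the other DR5 (chromosome 19, 37697738 to 37701536), had 1, 7 and 18 reads in V5 and 16, 8 and 1 in WT. Its WT libraries ran from 0.399 to 12.4 CPM and enclosed all V5 libraries, from 1.24 to 6.15 CPM, so these counts set no direction (exact permutation p = 0.8). At 3729 bp it is the shortest member. The 2 genes with a DR5 in the promoter window were not among those with V5 wholly above WT. Both repeats lie before the start site and, by the deposited lengths, appear to lie outside the counted stretch, though that of Rarb is not known exactly. Whether a read that covers a repeat and reaches into the counted stretch was counted is not known. The counts therefore cannot single out reads at the repeats themselves.

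Summed over roles, V5 lay wholly above WT for the receptors but not for the enzymes. The receptor sum contains Rarg, Rxra and Rxrb, already described as wholly above, so it adds no separate support. Whether these sums differ from each other was not tested. The 6 receptor genes together held 383, 323 and 297 CPM in V5 replicates 1 to 3 and 260, 245 and 253 in WT replicates 1 to 3, with 286 in the input. The 4 enzyme genes held 150, 96.6 and 144 CPM in V5 and 158, 145 and 131 in WT, and these overlapped. Within the receptors, the 3 RXR genes had 182, 134 and 115 CPM against 93.1, 98.7 and 88.6, mostly through Rxra, and 63.1 in the input. The 3 RAR genes had 201, 189 and 181 against 167, 146 and 164, but the input, at 223, was above all of them. Over all 10 members the ratio of mean CPM between V5 and WT was 1.17. No test was made of these sums, since the members were chosen with results of these data known.

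Set against the input, the members fell into different patterns even in the wild-type libraries, which hold no V5. All 6 ChIP libraries were above the input in Rxra and Aldh1a3, 2 of the 8 members with enough reads, where 13.0% of all genes tested were. All 6 were below it in Rarb alone (14.9% of all genes tested). Rxra had the highest ratio to the input, 3.52 in V5 and 2.08 in WT, and 1.34% and 5.59% of all genes tested had a ratio at least that high. Its input was low, at 0.336 CPM per kilobase of deposited length (lower quartile of all genes tested 0.682). In WT Rxra had 0.700, also under the lower quartile of 0.774, and in V5 1.19, just above the upper quartile of 1.16. The high ratios of Rxra thus go with a low single input. At the other end of the ratios Rxrb stood at 0.758 in V5 and 0.327 in WT, and Rarg at 0.951 and 0.437. The WT ratio of Rarg was low among all genes, since 97.2% of those tested had one at least as high, and Rara was lower in WT (0.618) than in V5 (0.877) as well. So the V5 values of Rarg, Rara and Rxrb were near or under the input with the WT values further below it, whereas the V5 value of Rxra was above both. Aldh1a2 was above the input in both groups, with log2 ratios of 0.59 in V5 and 0.81 in WT. V5 and WT ratios share the same single input, which has no replicate, and no test was made.

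**Figure D3:**
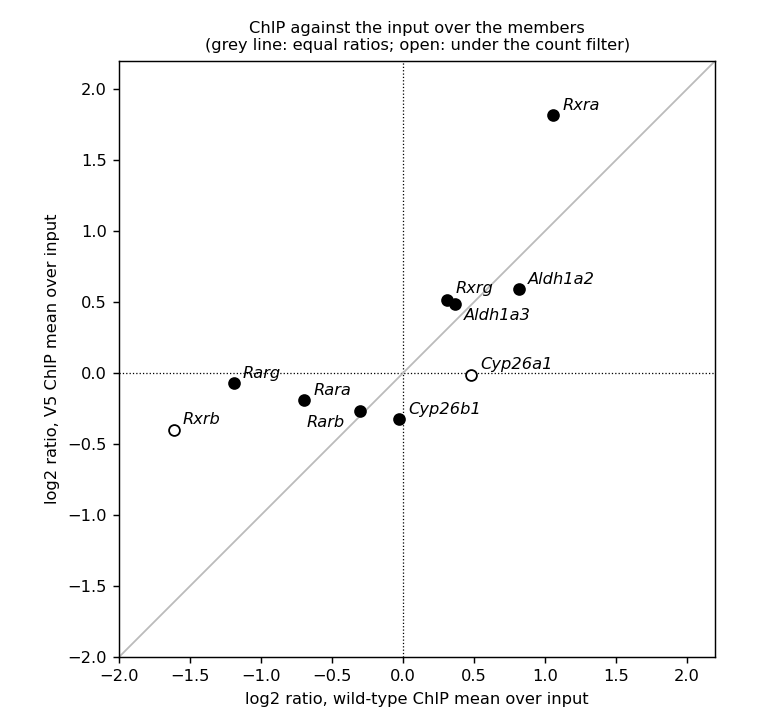
Log2 ratio of mean ChIP CPM to the input in V5 (vertical axis) and in WT (horizontal axis) for each gene, with a grey line where both are equal; open points had too few reads for the gene-level test. Rxra lies farthest to the upper right, at 1.82 in V5 and 1.06 in WT, while Rarg, Rara and Rxrb lie well above the line at negative WT values and Rarb close to it.

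Levels can be compared between genes only per length, in CPM per kilobase of deposited length. In V5 the order of mean levels ran from Rarg (1.35) through Rxra (1.19), Cyp26a1 (1.15), Rara (1.11), Aldh1a3 (1.09), Rxrb (1.04), Aldh1a2 (0.914), Rxrg (0.847) and Rarb (0.822) to Cyp26b1 (0.546), beside a median of 0.935 over all genes tested. All neighbours in that order overlapped in their libraries except Rarb and Cyp26b1, with 0.790 to 0.854 against 0.386 to 0.744. In WT the order was Cyp26a1 (1.68), Aldh1a2 (1.07), Aldh1a3 (1.01), Rarb (0.805), Rara (0.778), Rxrg (0.737), Rxra (0.700), Cyp26b1 (0.679), Rarg (0.616) and Rxrb (0.427), beside a median of 0.939, and all neighbours overlapped. Rarg thus led the members in V5 and was next to last in WT. In the input Rarg (1.44) and Rxrb (1.43) led and Rxra (0.336) came last. The input median over all genes was 0.911.

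The nearest protein-coding gene with enough reads on each side of a member gave the local context, 20 genes in all. Those of Rxra, Wdr5 and Col5a1, lie 140 and 123 kb away. Their log2 fold changes were 1.15 (SE 0.59) and 0.33 (SE 0.22), both positive like that of Rxra. V5 was wholly above WT in Col5a1. Wdr5 had 51, 16 and 77 reads in V5 and 21, 18 and 41 in WT, and the groups overlapped in CPM. The neighbours of Rarg, Itgb7 and Espl1, 1.53 and 38.7 kb away, stood at -0.86 (SE 0.72) and -0.51 (SE 0.52), opposite in sign to Rarg. Cdc6, which loads the replicative helicase and lies 3.86 kb from Rara, stood at 1.55 (SE 0.74), and Top2a on the other side at -0.09 (SE 0.54). Cdc6 had 83, 19 and 47 reads in V5 and 40, 13 and 17 in WT, which overlapped in CPM. Col11a2, 0.516 kb from Rxrb, stood at 0.78 (SE 0.58), with V5 wholly above WT, and Vps52 on the other side, 64.8 kb away, at -0.41 (SE 0.73). The other 12 neighbours had log2 fold changes between -0.37 and 0.31. None of the neighbours passed over all genes by edgeR, each with an adjusted p of 0.978 to 0.998.

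Other genes of retinoid biology were split between more and fewer reads in V5. A list of 100 genes for transport, metabolism, coregulation, RXR partners and retinoid response had 66 with enough reads, of which 27 had a positive and 39 a negative log2 fold change (52.5% of all genes tested were positive), with a median of -0.07. Of them 0 passed in either direction by edgeR, and 4 had V5 wholly above WT (6.06%, beside 4.83% of all genes tested) and 1 wholly below (1.52%, beside 5.27%). By role, 4 of 13 retinol and retinal oxidoreductases, 5 of 14 coregulators, 3 of 9 RXR partners and 13 of 25 retinoid-responsive developmental genes were positive, as were 1 of 3 transport genes and 1 of 2 carotenoid cleavage genes. Of the 2 further degradation genes none had enough reads.

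Of the genes with the smallest p in this list, 5 are described. Tbx1, a T-box gene of the pharynx that retinoic acid represses, stood at a log2 fold change of 2.32 (SE 0.77). V5 replicate 2 was the highest library, at 49.2 CPM, and the next was V5 replicate 1 at 16.1. Tbx1 was at 1.41 without V5 replicate 2 and at 3.09 without WT replicate 2. Dhrs3, which returns retinal to retinol, stood at 1.19 (SE 0.51), with 78.1, 34.3 and 24.0 CPM against 17.8, 24.9 and 18.4, and was at 0.49 without V5 replicate 1. Zfp423 (0.32, SE 0.18) had V5 wholly above WT, while Rarres1 (0.99, SE 0.58) owed its value to V5 replicate 2, at 77.3 CPM, and was at -0.13 without it. Ppara, an RXR partner, stood at 0.48 (SE 0.30). None of these 5 genes passed (edgeR adjusted p = 0.978 for each).

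**Figure D4:**
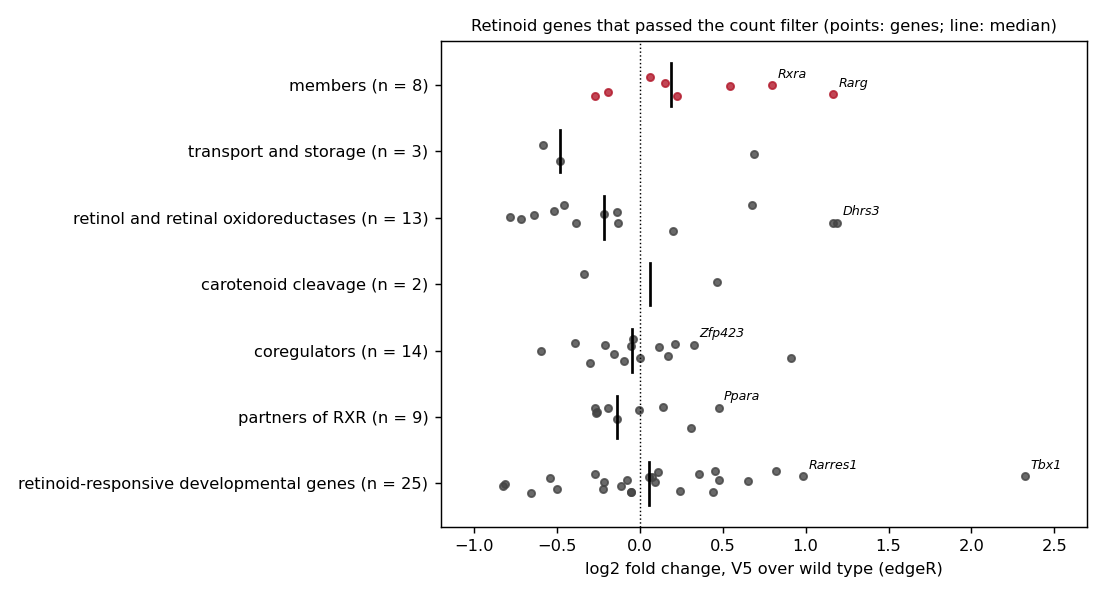
Log2 fold change of V5 over WT by edgeR (horizontal axis) for the members with enough reads (red, n = 8) and for other retinoid genes by role (dark grey); each point is a gene and each black line a median. Rarg, Rxra and the 5 other genes described carry their names; Tbx1, at 2.32, lies farthest to the right.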

How the data were processed

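Read counts per gene were deposited by the authors for 3 V5 ChIP, 3 WT ChIP and 1 input library, 1 column each, per the file headers. Per the submitters' processing notes, bcl2fastq, featureCounts, MACS and mm10 were used. The aligner, duplicate handling and strand setting are not given in these sources, and peaks were not analysed here. Symbols and coordinates came from RefSeq GRCm38.p6 by gene identifier (25275 of 27179 genes matched); the length column was used for levels per kilobase.

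V5 was tested against WT by edgeR 4.0.16 under R 4.3.3 (genes kept by filterByExpr at min.count 10, TMM scaling, robust glmQLFit and two-sided glmQLFTest, Benjamini-Hochberg over 14575 genes, threshold 0.05); SEs were derived from the F statistic. The method was run on simulated counts drawn from its own fitted spread, as a check of the code and not of its power in these data. Genes under the filter got a two-sided exact permutation test on CPM. Ratios to the input used a prior count of 0.5. Alternatives were DESeq2 1.42.0, limma-voom (limma 3.58.1), the likelihood ratio test, other scalings, no filter, a replicate block and leaving out libraries.

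The members and lists were chosen with earlier results of these data known. Genes named were the members, Kat6a, the nearest tested protein-coding gene on each side of a member (12 by their range only) and the 6 genes of the wider list with the smallest p, 1 of which is not reported here. No 2 libraries agreed within sampling noise (chi-square per degree of freedom at least 4.03). By this measure the V5 libraries differed from each other by 9.46 to 10.2 and the WT libraries by 4.93 to 5.47. V5 replicate 3 differed from the WT libraries by 4.03 to 5.46, which was less than it differed from the other V5 libraries. The V5 libraries were thus less alike than the WT libraries.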

Additional observations from a re-analysis of the deposited data

How the results depend on the processing

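None of the 8 members with enough reads passed the adjusted threshold under any alternative that gave one. DESeq2, run without the count filter, did not call Rxrb or Cyp26a1 either, and no other adjusted p was taken for these 2 genes. Of 124 recomputed member values 118 kept their direction. The log2 fold change turned sign for Aldh1a2 without V5 replicate 2 (0.13; range on leaving out each library -0.49 to 0.13), Aldh1a3 without WT replicate 3 (-0.0025 to 0.30), Rarb without WT replicate 2 (-0.00076 to 0.14), Rxrg with limma-voom (-0.032) and without V5 replicate 1 (-0.19 to 0.39), and Cyp26a1 without WT replicate 1 (-1.10 to 0.42); the cause was not tested. With a prior count of 2 the log2 ratio to the input turned for Cyp26a1 in V5 (0.19) and Cyp26b1 in WT (0.020). The median of the wider list was -0.065 to 0.023 on leaving out each library, positive without WT replicate 1.

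Over all genes, 0 were called higher and 0 lower, but without a filter on low counts 9 were higher, with limma-voom 1 was higher and 3 lower, and with the replicate block and with the likelihood ratio test, chosen after seeing the data, 1 was higher. Leaving out each library gave 0 to 2 higher and 0 lower. None of these was one of the 8 members with enough reads. Same-numbered libraries deviated together little (correlations of 0.0139, 0.00564 and 0.0602, beside -0.0469 to 0.0248 for differently numbered ones). With so few libraries this cannot settle whether the numbers pair them. Under the block the edgeR adjusted p of each tested member was 1.00. The count of members with V5 wholly above WT was 3 to 4 of 10 with each library left out. Leaving out a library cannot undo a full separation, so Rarg, Rxra and Rxrb had to stay and the count could not fall. This is no check on those 3 genes. Rara was added without WT replicate 1 and Rarb without WT replicate 3. Of all genes tested, 8.03% to 11.3% were wholly above, but Rxrb is not among the genes tested, so the count and the share are not like for like. The count wholly below was 0 to 1 (8.66% to 16.9% of all genes tested), Cyp26b1 being the 1 without V5 replicate 3, where the share was 16.9%. The ratio of summed CPM ranged from 1.08 to 1.23. Low counts limit Rxrb and Cyp26a1.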
